A study of Homo sapiens with 12 samples.

Results

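The 10 genes described here encode the enzymes and chaperones that modify and fold procollagen in the endoplasmic reticulum. They are the prolyl 4-hydroxylase catalytic subunits P4HA1, P4HA2 and P4HA3, the lysyl hydroxylases PLOD1, PLOD2 and PLOD3, the prolyl 3-hydroxylase P3H1, the collagen chaperone SERPINH1 (HSP47), and the prolyl isomerases PPIB and PPIC (cyclophilins B and C). The genes were listed by name, with no threshold on measured values, but with earlier results of these data known. Shares and medians of the 10 set beside those of all genes are therefore descriptions. All 10 were found by symbol among the 58051 genes of the count tables. Each passed the filter on low counts in every comparison.

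RNA-seq was performed on 12 libraries from 3 established human renal cell carcinoma lines, all labelled as clear cell. In 786-O, cells transfected with a synthetic copy of the miRNA (miR-29 mimic, 1 library) were set against cells with a control mimic (1 library). A-498 had 2 libraries with the miR-29 mimic (replicates 1 and 2) and 2 with the control mimic (replicates 1 and 3). For ACHN there were 3 libraries with an inhibitor of miR-29, which blocks the endogenous miRNA, and 3 libraries with a control inhibitor. All cells were reverse-transfected at 10 nM with a lipid reagent, and RNA was taken 48 h later. No line received both reagents. The labels do not say which member of the miR-29 family the mimic copied, whereas the study's supplement names miR-29b for 786-O. The study's methods call the A-498 and ACHN replicates biological, without saying how the cultures were kept apart, and p-values measure the spread between these libraries.

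The libraries held 39919554 to 70027392 reads in genes, and in ACHN each inhibitor library was deeper than each control library. Replicate 2 of the ACHN inhibitor stood furthest from its group (chi-square per degree of freedom 10.7 and 12.2 against the other replicates). All 7 markers of renal epithelium, the labelled tissue, had at least 10 counts in every library. They summed to 1302 to 4156 TPM (transcript abundance scaled to transcript length and library total), and KRT8 and KRT18 made up most of this sum. Other markers could be weak. In A-498 control libraries PAX8 stood at 37.2 to 40.4 TPM, PAX2 at 0.637 to 0.674 TPM and EPCAM at 0.257 to 0.425 TPM (11 to 17 counts). With treatment, 5 of these 7 were called higher and 0 lower in A-498 (summed TPM 2424 to 2575 in control and 3489 to 3595 in mimic libraries), and 0 higher and 5 lower in ACHN (3885 to 4156 in control and 3140 to 3339 in inhibitor libraries). Of all genes tested, 25.5% were called higher and 27.0% lower in A-498, and 17.3% higher and 14.4% lower in ACHN. The part of the renal markers in the results was not tested. Of the markers of other cell types, those of endothelium and leukocytes summed to at most 0.834 TPM in any library. The 7 fibroblast markers summed to 0.801 to 0.832 TPM in A-498 control and 0.531 to 0.569 TPM in mimic libraries, to 90.8 to 103 TPM in ACHN control and 77.1 to 85.4 TPM in inhibitor libraries, and to 18.7 and 9.47 TPM in the 786-O control and mimic libraries. Of these 7, 2 were tested in A-498, where PDGFRB was called lower (log2 fold change -1.52, edgeR adjusted p = 2.21e-05) and FAP was not called. In ACHN 3 were tested, with PDGFRB (0.79) and DCN (1.12) called higher and THY1, which made up most of the sum, called lower (-0.20, edgeR adjusted p = 0.0076). In 786-O 2 of 3 were lower and 1 higher past 1.5-fold. The part of the fibroblast markers in the results was not tested. In bulk RNA, fewer cells of a type and less RNA per cell cannot be told apart.

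Collagen chains enter the endoplasmic reticulum unfolded. Hydroxylation of their prolines makes the triple helix stable at body temperature, hydroxylation of their lysines prepares cross-links and sites for sugars, cyclophilins speed the slow turning of proline bonds, and HSP47 binds the finished helix and escorts it toward the Golgi. The miR-29 family, comprising miR-29a, miR-29b and miR-29c, is known for repressing collagen genes and other matrix genes in fibrotic tissue and in tumours. It recognises target transcripts mainly through the seed, nucleotides 2 to 8, and a 3′ UTR that holds the reverse complement can pair with it.

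The 3 mature miRNAs (RefSeq) are shown because their seeds, in capitals, are the same, so 1 search covers the whole family.
miR-29a-3p: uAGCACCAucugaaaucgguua
miR-29b-3p: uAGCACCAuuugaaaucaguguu
miR-29c-3p: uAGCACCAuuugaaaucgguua

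The longest annotated 3′ UTR of each gene was searched on the transcribed strand for TGGTGCTA (8mer), TGGTGCT without the final A (7mer-m8), GGTGCTA (7mer-A1) and GGTGCT (6mer), each base being counted under the longest match only. Of the 10 genes, 4 held a match and 6 held none. PPIC held an 8mer at nucleotides 234 to 241 after the stop codon and a 6mer at 453 to 458. P3H1 held an 8mer at 360 to 367 (145 to 152 in its canonical transcript), which lies in the 3′ UTR of 3 of its 3 coding transcripts. SERPINH1 held a 7mer-A1 at 57 to 63 and a 6mer at 435 to 440, in 4 of 5 coding transcripts. PPIB held a single 6mer at 81 to 86. No match of any kind was found in the longest or the canonical 3′ UTR of P4HA1, P4HA2, P4HA3, PLOD1, PLOD2 or PLOD3. Other annotated 3′ UTRs, where a gene has them, were not searched. For comparison, 3.35% of 19248 protein-coding genes held an 8mer as their best match, 11.7% a 7mer-m8, 2.8% a 7mer-A1 and 13.6% a 6mer, whereas 68.5% held none.

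The best match of each of the 4 genes, with its flanks, is given in the transcribed direction (GRCh38, matched letters in capitals, all within 3′ UTR exons), since 3 of these 4 genes had the largest falls of the 10 in A-498. A match is a description of the sequence and not evidence of binding.
PPIC (chr5:123023623-123023652, minus strand): ccttcctcaagTGGTGCTAttttaaaacta
P3H1 (chr1:42746534-42746563, minus strand): agccttctacaTGGTGCTActgctcttgga
SERPINH1 (chr11:75572129-75572157, plus strand): tgagacacatgGGTGCTAttggggttggg
PPIB (chr15:64155926-64155953, minus strand): gcactggccccGGTGCTggcatctggtg

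All 10 genes fell with the miR-29 mimic in A-498, by 0.15 to 2.26 on the log2 scale. The largest falls were those of PPIC, SERPINH1 and P3H1. The count was 9 without mimic replicate 1 or with library-size scaling, where PLOD3 was not called. In the edgeR quasi-likelihood test at a Benjamini-Hochberg adjusted p under 0.05, the background share of genes lower with the mimic was 27.0% of 19676 and that of genes higher was 25.5%. The median log2 fold change of the 10 genes was -1.17, against 0.0045 for all genes tested. Both mimic libraries lay below both control libraries for every one of the 10, where 74.5% of all genes had groups that did not overlap in either direction.

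With the miR-29 inhibitor in ACHN, 7 of the 10 rose, 0 fell and 3 were not called. The 7 were P4HA1, P4HA2, P4HA3, P3H1, SERPINH1, PPIB and PPIC, and the 3 were the lysyl hydroxylases. Over all 17904 genes tested, 17.3% were higher and 14.4% lower. The median of the 10 was 0.36 on the log2 scale, against 0.0038 for all genes. The inhibitor libraries lay above the control libraries for the 7 called genes and overlapped them for the other 3, where 43.5% of all genes had groups without overlap.

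The same 7 genes were therefore called lower with the mimic in A-498 and higher with the inhibitor in ACHN, as were 10.5% of the 16708 genes tested in both lines. The reverse pattern, higher in A-498 and lower in ACHN, was found for 0 of the 10 and for 7.37% of all genes. The fits of A-498 and ACHN share no library.

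In 786-O, where 1 library per group allows no test, 4 of the 10 genes were lower by more than 1.5-fold in the mimic library (PLOD2, P3H1, SERPINH1 and PPIC) and 0 were higher by that much. PLOD2 lay at the edge of this limit (log2 ratio -0.59, against a limit of 0.585) and fell inside it with library-size scaling (-0.57), which left 3 genes. In this pair of libraries 19.0% of 20370 genes were lower by more than 1.5-fold and 15.7% higher. The log2 ratio was under 0 for 7 of the 10 genes (51.0% of all genes), with a median of -0.37 against -0.01 for all genes. Intervals given for 786-O cover counting error only.

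**Figure D1:**
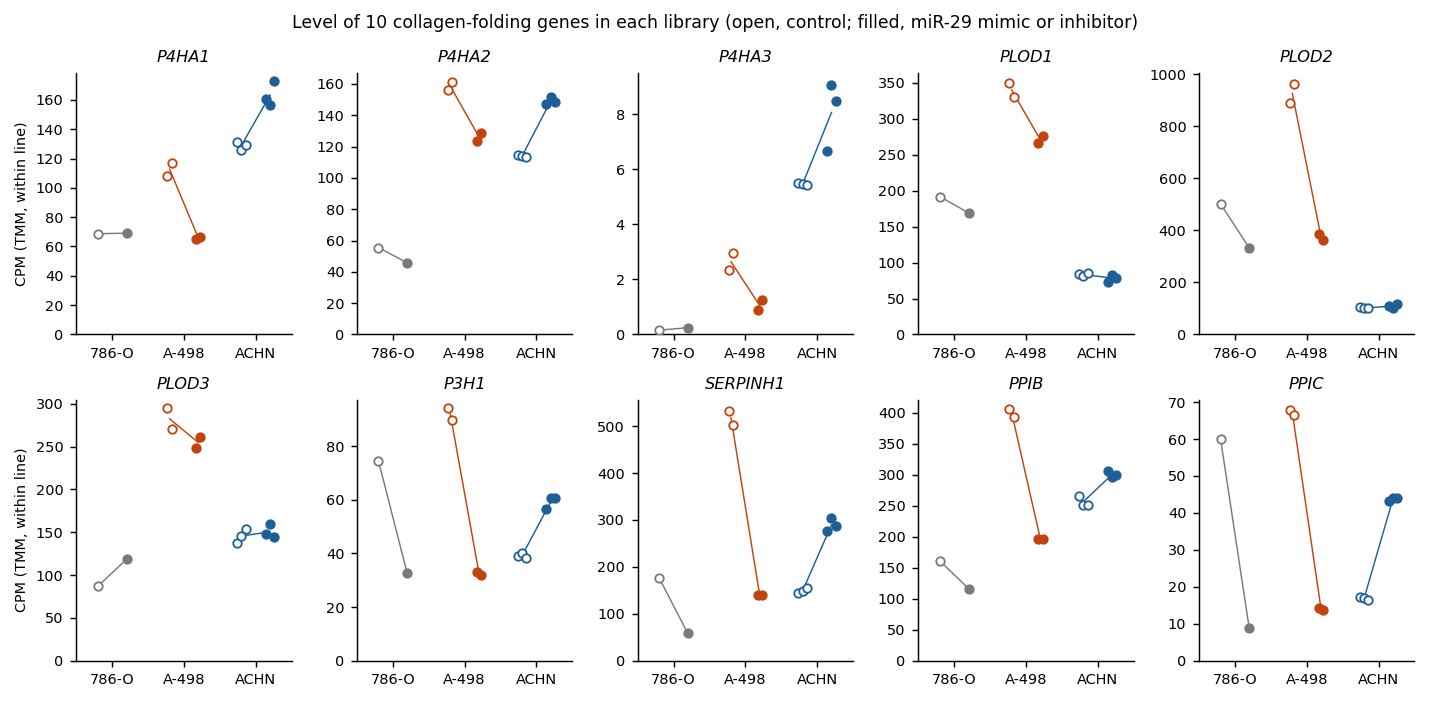
Level in CPM (reads per library total, TMM-adjusted within each line; linear axes from 0) of the 10 genes in each of the 12 libraries, with open points for control, filled points for miR-29 mimic (786-O, A-498) or inhibitor (ACHN), and lines joining group means. In A-498 the filled points lie below the open points in every panel, and in ACHN they lie above in all but the 3 PLOD panels; P4HA1 in 786-O is level at 68.7 and 69.1 CPM.

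The prolyl 4-hydroxylases form the active enzyme as pairs of a catalytic alpha subunit, encoded by 1 of the 3 P4HA genes, with the P4HB protein. P4HA1 (ENSG00000122884, chromosome 10, 73007217 to 73096974, minus strand, GRCh38) encodes the alpha subunit most tissues use. Its level in A-498 was 108 and 117 CPM with the control mimic and 65.3 and 66.5 CPM with the miR-29 mimic. In ACHN it was 131, 126 and 129 CPM in control and 160, 157 and 173 CPM in inhibitor libraries. The groups were apart in both lines, with log2 fold changes of -0.78 (SE 0.0472, edgeR adjusted p = 5.96e-09) and 0.34 (SE 0.047, edgeR adjusted p = 1.97e-05), respectively. In 786-O the control and mimic libraries gave 68.7 and 69.1 CPM, a log2 ratio of 0.007 (95% counting interval -0.07 to 0.08).

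P4HA2 (ENSG00000072682, chromosome 5, 132190147 to 132295315, minus strand) encodes the second alpha subunit, known for its abundance in cartilage and bone. It went from 156 and 161 CPM to 123 and 129 CPM in A-498, and from 114, 114 and 114 CPM to 147, 152 and 149 CPM in ACHN. The 3 ACHN control libraries were within 1 CPM of each other (113.5 to 114.4), well under the gap to the inhibitor libraries. By edgeR, P4HA2 had log2 fold changes of -0.33 (SE 0.0404, adjusted p = 8.53e-06) and 0.39 (SE 0.0428, adjusted p = 1.43e-06) in these lines. In 786-O the level was 55.5 CPM in the control and 45.8 CPM in the mimic library, a log2 ratio of -0.28 (counting interval -0.36 to -0.19).

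P4HA3 (ENSG00000149380, chromosome 11, 74235801 to 74311640, minus strand), the remaining alpha subunit, was the weakest of the 10 genes in every group. Its counts were 126 and 174 in A-498 control and 55 and 71 in mimic libraries, or 2.34 and 2.96 CPM against 0.873 and 1.24 CPM. In ACHN the level was 5.51, 5.48 and 5.45 CPM in control and 6.67, 9.05 and 8.49 CPM in inhibitor libraries, so the inhibitor libraries spread more than the controls but stayed above them. By edgeR, the log2 fold changes were -1.34 (SE 0.193, adjusted p = 4.11e-05) in A-498 and 0.56 (SE 0.105, adjusted p = 0.000452) in ACHN. In 786-O it had 7 counts in the control and 11 in the mimic library, and the counting interval of the log2 ratio ran from -0.85 to 2.25, so no difference was detectable at this depth.

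The lysyl hydroxylases convert lysines of collagen, PLOD1 in the helix, PLOD2 in the telopeptides at the chain ends, and PLOD3 with an added sugar transferase activity. PLOD1 (ENSG00000083444, chromosome 1, 11934205 to 11975538, plus strand) went from 350 and 331 CPM to 266 and 276 CPM in A-498, a log2 fold change of -0.33 (SE 0.0394, edgeR adjusted p = 6.85e-06). In ACHN it stood at 83.7, 81.6 and 85.2 CPM in control and 73.5, 82.8 and 78.9 CPM in inhibitor libraries. The ACHN groups overlapped, with a log2 fold change of -0.09 (95% interval -0.20 to 0.01, edgeR adjusted p = 0.18), but PLOD1 was called lower without inhibitor replicate 2 (-0.14, edgeR adjusted p = 0.021). In 786-O the level was 192 and 169 CPM, a log2 ratio of -0.18 (counting interval -0.23 to -0.14).

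PLOD2 (ENSG00000152952, chromosome 3, 146035139 to 146163725, minus strand) had more reads than any other of the 10 genes in A-498, with 890 and 961 CPM in control and 385 and 364 CPM in mimic libraries. The gap was many times the spread within either group, at a log2 fold change of -1.31 (SE 0.0421, edgeR adjusted p = 9.9e-12). In 786-O the level was 502 and 333 CPM, a log2 ratio of -0.59 (counting interval -0.62 to -0.56). In ACHN it was 104, 99.9 and 102 CPM in control and 110, 100 and 117 CPM in inhibitor libraries, and the groups overlapped (log2 fold change 0.09, 95% interval -0.02 to 0.20, edgeR adjusted p = 0.207). Without inhibitor replicate 2 PLOD2 was called higher (0.14, edgeR adjusted p = 0.0121). A rise in ACHN as large as the fall in A-498 lies outside this interval.

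PLOD3 (ENSG00000106397, chromosome 7, 101205977 to 101218420, minus strand) moved least in A-498, from 295 and 270 CPM to 248 and 261 CPM, at a log2 fold change of -0.15 (SE 0.0448, edgeR adjusted p = 0.0122). That call was lost with library size in place of TMM scaling (log2 fold change -0.07, adjusted p = 0.19) and without mimic replicate 1 (log2 fold change -0.12, adjusted p = 0.157). In ACHN it stood at 137, 146 and 154 CPM in control and 148, 159 and 144 CPM in inhibitor libraries, with a log2 fold change of 0.05 (95% interval -0.06 to 0.16, edgeR adjusted p = 0.534). In 786-O it was higher in the mimic library, at 118 CPM against 86.97 CPM, a log2 ratio of 0.44 (counting interval 0.38 to 0.51). Without inhibitor replicate 2 the ACHN value was -0.001 (edgeR adjusted p = 0.983).

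P3H1 (ENSG00000117385, chromosome 1, 42746335 to 42767084, minus strand) encodes the enzyme that, in a complex with CRTAP and cyclophilin B, hydroxylates the 3-position of a few prolines in fibrillar collagens. It was at 94.2 and 89.6 CPM in A-498 control libraries and at 33.2 and 32.1 CPM in mimic libraries. In ACHN it was at 39.0, 40.1 and 38.4 CPM in control and 56.5, 60.6 and 60.8 CPM in inhibitor libraries. Both gaps were far wider than the spread within groups, with log2 fold changes of -1.49 (SE 0.0492, edgeR adjusted p = 1.19e-11) and 0.60 (SE 0.0455, edgeR adjusted p = 1.36e-08). In 786-O the level went from 74.5 CPM in the control to 32.6 CPM in the mimic library, a log2 ratio of -1.19 (counting interval -1.28 to -1.11).

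SERPINH1 (ENSG00000149257, chromosome 11, 75562056 to 75572783, plus strand), which encodes HSP47, showed 533 and 503 CPM in A-498 control libraries and 140 and 139 CPM in mimic libraries. This amounted to 0.27 times the control level (log2 fold change -1.89, SE 0.0396, edgeR adjusted p = 1.54e-13). In ACHN it went from 144, 149 and 156 CPM in control to 277, 305 and 287 CPM in inhibitor libraries, a 1.94-fold rise (log2 fold change 0.95, SE 0.0468, edgeR adjusted p = 3.59e-11). No library of either treated group came near the control range. In 786-O the level was 176 CPM in the control and 58.1 CPM in the mimic library, a log2 ratio of -1.60 (counting interval -1.67 to -1.54).

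PPIB (ENSG00000166794, chromosome 15, 64155740 to 64163134, minus strand) encodes cyclophilin B, the isomerase that also sits in the P3H1 complex. It went from 407 and 393 CPM to 196 and 197 CPM in A-498, a log2 fold change of -1.03 (SE 0.0365, edgeR adjusted p = 2.6e-11). The rise in ACHN was smaller, from 267, 252 and 252 CPM to 306, 296 and 299 CPM (log2 fold change 0.23, SE 0.0404, edgeR adjusted p = 0.000261), without overlap between the groups. In 786-O the level was 161 and 117 CPM, a log2 ratio of -0.47 (counting interval -0.52 to -0.42), which is within 1.5-fold.

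PPIC (ENSG00000168938, chromosome 5, 123023250 to 123036725, minus strand) encodes cyclophilin C, a relative of cyclophilin B in the secretory pathway. It changed more than any other of the 10 genes in all 3 lines. Its level was 67.7 and 66.6 CPM in A-498 control and 14.2 and 13.8 CPM in mimic libraries (log2 fold change -2.26, SE 0.0541, edgeR adjusted p = 5.19e-13). In ACHN it was 17.4, 17.0 and 16.4 CPM in control and 43.1, 43.98 and 44.1 CPM in inhibitor libraries (log2 fold change 1.37, SE 0.0504, edgeR adjusted p = 6.43e-13), a 2.58-fold rise. In 786-O its counts were 2672 in the control and 392 in the mimic library, or 60.0 and 8.76 CPM, a log2 ratio of -2.77 (counting interval -2.93 to -2.62). The gap between groups exceeded the spread within them many times over in both replicated lines.

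**Figure D2:**
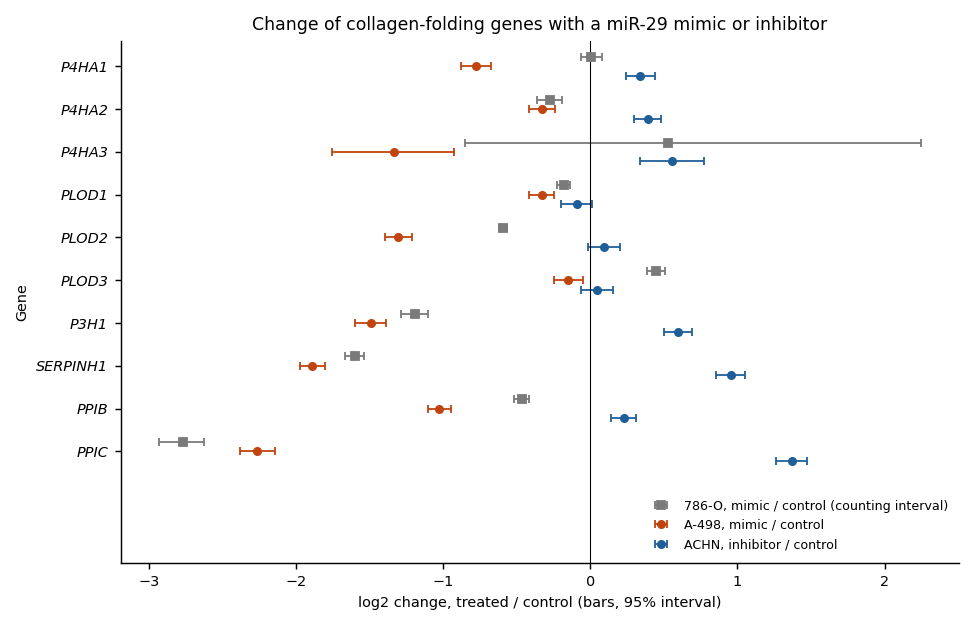
Log2 change of each gene (treated over control) in 786-O (squares, with 95% counting intervals), A-498 and ACHN (circles, with 95% intervals derived from the edgeR test). PPIC lies furthest from 0 in every line (-2.77, -2.26 and 1.37), the A-498 values are all below 0, and the ACHN intervals of the 3 PLOD genes include 0.

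The 10 genes can be set beside all genes with the same kind of seed match. Among tested protein-coding genes whose best match in the longest 3′ UTR was an 8mer, the median log2 fold change in A-498 was -0.33 (527 genes, 57.5% called lower), and in ACHN it was 0.17 (501 genes, 50.7% called higher). PPIC was among the 3 genes of those 527, itself included, that fell at least as far in A-498, and among the 7 of 501 that rose at least as far in ACHN. P3H1 held the same class of match, and 31 of the 527 genes (5.88%) fell at least as far as it did in A-498. In ACHN 71 of 501 (14.2%) rose at least as far as P3H1. For SERPINH1, 6 of 439 genes with a 7mer-A1 (1.37%) fell at least as far in A-498 and 10 of 428 (2.34%) rose at least as far in ACHN. For PPIB the figures were 111 of 2074 genes with a 6mer (5.35%) in A-498 and 427 of 1991 (21.4%) in ACHN. In 786-O, 5 of 507 genes with an 8mer (0.986%) were at least as low as PPIC and 89 (17.6%) at least as low as P3H1, and for SERPINH1 and PPIB the shares were 4.61% and 27.3% of their classes.

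Genes with no match had a median of 0.06 in A-498 (8881 genes, 25.4% called lower) and of -0.02 in ACHN (8316 genes, 15.4% called higher). The 6 genes without a match nevertheless include 2 with large falls. Of the 8881 genes without a match, 76 (0.856%) fell at least as far as P4HA3 in A-498 and 82 (0.923%) at least as far as PLOD2. P4HA1 followed at 364 genes (4.1%), whereas for P4HA2 the figure was 1437 genes (16.2%), for PLOD1 1439 (16.2%) and for PLOD3 2504 (28.2%). In ACHN, 239 of 8316 genes without a match (2.87%) rose at least as far as P4HA3. The figure was 493 (5.93%) for P4HA2, 633 (7.61%) for P4HA1, 2411 (29.0%) for PLOD2, 3045 (36.6%) for PLOD3 and 5351 (64.3%) for PLOD1. The shares of P4HA1, P4HA2 and P4HA3 lay between those of SERPINH1 (2.34%) and P3H1 (14.2%) in their own classes. In 786-O, of 8723 genes without a match, 1014 were at least as low as PLOD2, 2122 as P4HA2 and 2674 as PLOD1. The counts were 3981 for P4HA1, 6978 for PLOD3 and 7285 for P4HA3. These shares describe where single genes lay and carry no test.

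**Figure D3:**
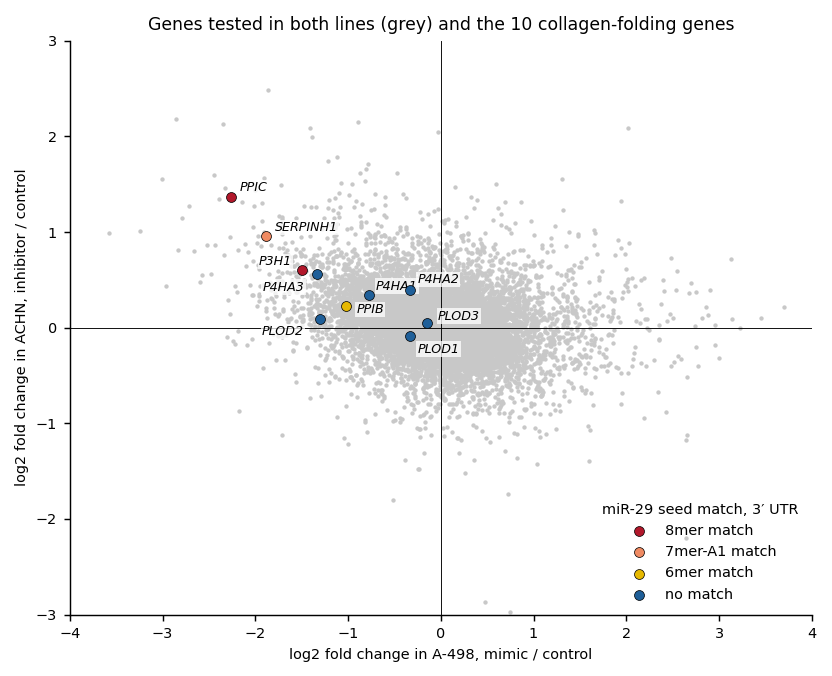
Log2 fold change with the miR-29 mimic in A-498 (horizontal) against that with the miR-29 inhibitor in ACHN (vertical) for the 16708 genes tested in both (grey; 3 lie outside the axes), with the 10 genes coloured by their best seed match. The 7 genes called in both lines lie in the upper left, where the A-498 value is negative and the ACHN value positive, with PPIC (8mer) at the outer edge and PLOD1, PLOD2 and PLOD3 (no match) near 0 on the vertical axis.

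Whether the mimic acted differently in the lines that received it was tested as an interaction in edgeR over the 6 libraries of 786-O and A-498, with the spread taken from A-498 alone. Each 786-O group is 1 library, so the calls hold only if 786-O libraries vary as little as those of A-498. With a biological coefficient of variation of 0.2 assumed in place of the 0.0383 estimated in A-498, 0 of the 10 genes and 1.24% of all genes were called. With the A-498 estimate, 9 of the 10 genes were called at an adjusted p under 0.05, where 29.6% of 22587 genes were, and 8 of these 9 had the more negative effect in A-498. PPIC was the exception, with an effect more negative in 786-O (difference, 786-O minus A-498, -0.47 on the log2 scale, SE 0.11, adjusted p = 0.0027). The difference was widest among well-counted genes for P4HA1 (0.83, SE 0.0847, adjusted p = 2.59e-07), PLOD2 (0.76, SE 0.0699, adjusted p = 6.5e-08), PLOD3 (0.64, SE 0.081, adjusted p = 4.05e-06) and PPIB (0.60, SE 0.0683, adjusted p = 9.73e-07), all from the same edgeR fit. P4HA2 was not called (0.10, 95% interval -0.07 to 0.27, adjusted p = 0.39). Without A-498 mimic replicate 1, 4 genes were called with a more positive effect in 786-O, the calls of PLOD1, P4HA3, P3H1 and SERPINH1 being lost. The call of P3H1 was also lost without mimic replicate 2, and that of PLOD1 without mimic replicate 2 or control replicate 3.

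Levels of different genes were compared in TPM, computed from the counts with the length of each canonical transcript. PPIB had the highest level of the 10 genes and P4HA3 the lowest in all 6 groups. In A-498 control libraries PPIB stood at 943.6 ± 9.32 TPM (SD, n = 2), followed by SERPINH1 at 530 ± 14.2 TPM and PLOD2 at 520.4 ± 35.3 TPM, whose ranges overlapped. PLOD1 (241 ± 5.99 TPM), PLOD3 (211 ± 9.88 TPM), PPIC (104 ± 0.164 TPM) and P4HA1 (86.6 ± 5.92 TPM) came next without overlap between neighbours. P3H1 (74.7 ± 1.62 TPM) and P4HA2 (73.5 ± 2.63 TPM) overlapped, and P4HA3 was at 2.48 ± 0.445 TPM.

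In ACHN control libraries (SD, n = 3) the order below PPIB (599.9 ± 15.3 TPM) and SERPINH1 (152 ± 6.88 TPM) was different, with PLOD3 (108 ± 6.92 TPM) and P4HA1 (98.1 ± 1.43 TPM) next. PLOD1 (58.6 ± 1.28 TPM), PLOD2 (56.8 ± 0.806 TPM) and P4HA2 (52.3 ± 0.253 TPM) followed, then P3H1 (31.6 ± 0.817 TPM), PPIC (25.9 ± 0.629 TPM) and P4HA3 (5.07 ± 0.0246 TPM). The ranges of PLOD1 and PLOD2 were separated by 57.5 against 57.3 TPM only. In the 786-O control library PLOD2 was second to PPIB (307 and 413 TPM), and P4HA3 was at 0.16 TPM. The rank of PPIB rests on its canonical transcript of 893 nt, as its longest annotated transcript has 4064 nt.

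**Figure D4:**
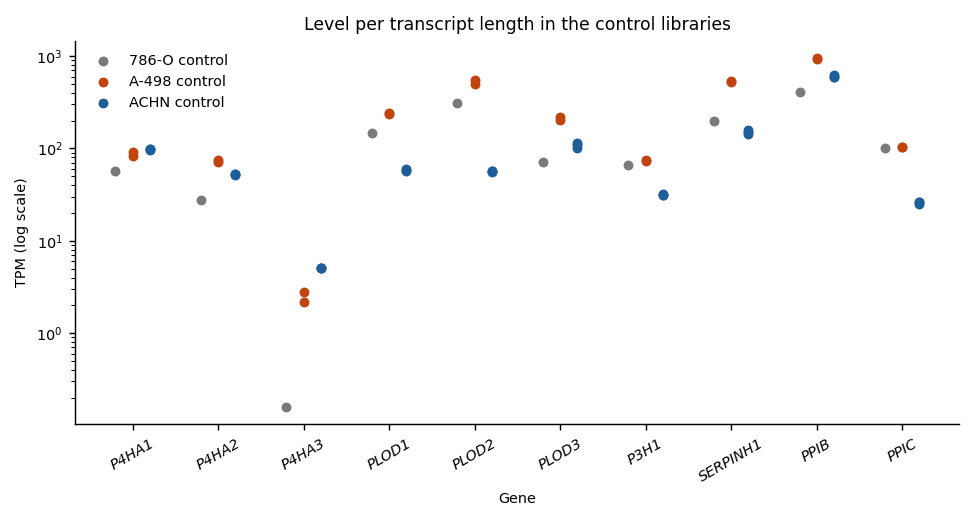
Level of each gene in the control libraries of 786-O (n = 1), A-498 (n = 2) and ACHN (n = 3), in TPM on a log scale, with 1 point per library. PLOD2 spans 56.8 TPM on average in ACHN to 520.4 TPM in A-498, and P4HA3 lies below 6 TPM in every control library.

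Between the control libraries of A-498 and ACHN, 8 of the 10 genes were higher in A-498 and 2 were lower (edgeR, adjusted p under 0.05), where 41.0% of 19689 genes were higher and 38.7% lower. PLOD2 differed most, at 8.75-fold higher in A-498 (log2 difference 3.13, SE 0.0398, edgeR adjusted p = 3.8e-23). PLOD1 (3.93-fold), PPIC (3.83-fold) and SERPINH1 (3.34-fold) were also well above ACHN, and P3H1 (2.26-fold), PLOD3 (1.87-fold), PPIB (1.5-fold) and P4HA2 (1.34-fold) less so. P4HA1 was lower in A-498 at 0.844 times the ACHN level (edgeR adjusted p = 3.08e-05), and P4HA3 at 0.468 times (edgeR adjusted p = 9.79e-08). The line, the control reagent and the library preparation cannot be told apart in this comparison. PLOD2, P4HA1 and P4HA2 are known to respond to hypoxia-inducible factors; of 11 other hypoxia-responsive genes, 8 were higher and 3 lower in A-498, with a median log2 difference of 1.39, and their part in the difference was not tested.

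Shares within each family were computed from counts per kilobase of the union of annotated exons. PPIC made up 25.9% and 26.2% of the summed PPIB and PPIC level in A-498 control libraries and 13.1% and 12.9% with the mimic. In ACHN the share rose from 12.03%, 12.42% and 12.02% to 22.8%, 23.8% and 23.6%, and in 786-O it went from 43.9% to 13.6%. In both replicated lines the groups were fully apart, but the exact permutation test (two-sided) cannot go below 0.333 in A-498 and 0.1 in ACHN, and gave those values (adjusted p = 0.431 over 14 shares). With canonical transcript lengths the PPIC share was 9.90% and 4.45% on average in A-498 and 4.14% and 8.70% in ACHN, in the same directions but less than 0.5 times as large.

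Among the lysyl hydroxylases, PLOD2 made up 35.9% ± 2.36 (SD, n = 2) of the 3 in A-498 control libraries and 21.2% ± 1.18 with the mimic, whereas PLOD3 went from 28.1% ± 1.38 to 36.9% ± 0.765 and PLOD1 from 36.0% ± 0.978 to 41.9% ± 0.419 (exact permutation p = 0.333 for each, the smallest possible). With canonical lengths the PLOD2 share went from 53.5% to 35.5%, beside 32.4% for PLOD1 and 32.1% for PLOD3 with the mimic, so the direction was the same and the order of the 3 rests on the length used. In ACHN, PLOD3 held 53.0% ± 1.45 (SD, n = 3) in control and 54.4% ± 1.49 in inhibitor libraries (exact permutation p = 0.4, adjusted p = 0.431). PLOD1 went from 32.4% ± 0.854 to 30.2% ± 0.947 there (exact permutation p = 0.1, the smallest possible, adjusted p = 0.431). The ACHN share of PLOD2 was 14.5% ± 0.602 in control and 15.4% ± 1.55 in inhibitor libraries (exact permutation p = 0.4). Among the prolyl 4-hydroxylases, P4HA1 went from 69.1% ± 0.57 to 62.6% ± 0.539 in A-498 and P4HA2 from 29.7% ± 0.721 to 36.6% ± 0.366 (exact permutation p = 0.333 for each). In ACHN the P4HA1 share was 76.7% ± 0.345 in control and 75.9% ± 1.17 in inhibitor libraries (exact permutation p = 0.2). With canonical lengths P4HA2 exceeded P4HA1 in the A-498 mimic libraries, at 53.1% against 46.0%, so the order of these 2 rests on the length used.

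Other genes of collagen biosynthesis were taken from lists chosen for their roles. For comparison with the counts below, 27.0% of all genes tested were called lower and 25.5% higher in A-498. In ACHN the shares were 14.4% lower and 17.3% higher. Of 12 other collagen-modifying enzymes and chaperones, 6 fell and 3 rose in A-498 (median log2 fold change -0.14, against 0.0045 for all genes), and 1 fell and 4 rose in ACHN (median 0.07, against 0.0038). COLGALT1, a galactosyltransferase that acts on hydroxylysine, fell most, from 368 ± 12.9 to 105 ± 1.25 CPM in A-498 (log2 fold change -1.80, SE 0.0399, edgeR adjusted p = 2.58e-13). P3H4, a protein of the lysine-hydroxylating complex, rose most in ACHN (log2 fold change 0.67, SE 0.0549, edgeR adjusted p = 3.79e-08), COLGALT2 rose most in A-498 (1.45, edgeR adjusted p = 8.99e-06) and P3H3 fell in ACHN (-0.22, edgeR adjusted p = 0.00485). COLGALT2 was scarce in A-498, at 1.58 ± 0.556 CPM in control and 4.35 ± 0.334 CPM in mimic libraries. P4HB and CRTAP, partners of the enzymes described above, were named after their values were seen. P4HB, the subunit shared by the prolyl 4-hydroxylases, had log2 fold changes of -0.24 in A-498 (edgeR adjusted p = 8.7e-05) and 0.08 in ACHN (adjusted p = 0.148), and CRTAP, which binds P3H1, had -0.04 (adjusted p = 0.346) and 0.01 (adjusted p = 0.836).

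General chaperones of the endoplasmic reticulum, which fold secretory proteins of every kind, were called in the same directions as the 10 genes, with smaller medians. Of 12, 11 fell and 0 rose in A-498 (median -0.48), and 0 fell and 8 rose in ACHN (median 0.16, with 6 higher by DESeq2). SDF2L1 had the largest fall of the mimic comparison (-0.79, SE 0.114, edgeR adjusted p = 4.48e-05), and DNAJB9 the largest rise with the inhibitor (0.36, SE 0.1, edgeR adjusted p = 0.00876). Genes of procollagen export, which carry the folded molecule out in coated carriers, were split, with 5 called lower and 6 higher of 13 in A-498, against 0 and 2 in ACHN. SEC24D, a cargo-binding coat subunit, fell in A-498 (-0.86, edgeR adjusted p = 4.88e-10) and rose in ACHN (0.50, edgeR adjusted p = 1.25e-07), whereas TRAPPC2 rose in A-498 (0.37, edgeR adjusted p = 0.00109). The sign of the small median of the export genes flipped with scaling, to 0.04 from -0.04 (A-498) and to -0.009 from 0.002 (ACHN) with library size only.

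The collagens themselves, the clients of these enzymes, numbered 17 in the list of fibrillar and basement membrane chains, of which 13 were tested in A-498 and 11 in ACHN. In A-498 9 fell and 3 rose (median -0.87), and in ACHN 0 fell and 7 rose (median 0.65). The largest changes by the naming rule were COL4A4 in A-498 (-2.72, SE 0.164, edgeR adjusted p = 5.65e-09), COL27A1 in A-498 (0.62, edgeR adjusted p = 6.63e-08) and COL1A1 in ACHN (2.48, SE 0.126, edgeR adjusted p = 5.41e-11). COL1A1 was nevertheless scarce in ACHN, at 1.33 ± 0.27 CPM in control and 7.41 ± 0.466 CPM in inhibitor libraries. COL4A4 was also scarce in A-498, at 5.91 ± 0.566 CPM in control and 0.905 ± 0.248 CPM in mimic libraries. Of 10 proteases and enhancers of procollagen processing, 8 were tested in A-498 (4 lower, 2 higher, median -0.48) and 6 in ACHN (0 lower, 2 higher, median 0.28). The medians were nearer 0 by DESeq2, at -0.178 in A-498 (3 lower, 1 higher) and 0.125 in ACHN (0 lower, 2 higher). ADAMTS2, which removes the amino-terminal propeptide, fell in A-498 (-2.14, edgeR adjusted p = 1.25e-12) and TLL2 rose there (0.49, edgeR adjusted p = 0.000117), and BMP1, which removes the carboxy-terminal propeptide, rose in ACHN (0.54, edgeR adjusted p = 9.63e-07).

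Since several of the 10 genes are known to respond to hypoxia, 11 other hypoxia-responsive genes were counted too. In A-498 6 fell and 4 rose (median -0.67), and in ACHN 2 of 9 fell and 2 rose (median 0.06). In A-498 NDRG1 had the largest fall (-1.86, SE 0.035, edgeR adjusted p = 6.89e-14), and it had the largest rise in ACHN (0.96, SE 0.0486, edgeR adjusted p = 5.35e-11), while CA9 rose in A-498 (0.59, edgeR adjusted p = 2.72e-05) and BNIP3 fell in ACHN (-0.16, edgeR adjusted p = 0.00768). In 786-O, genes past 1.5-fold numbered 3 lower and 3 higher of 12 among the other collagen modifiers, and 1 and 2 of 12 among the general chaperones. They numbered 2 and 2 of 13 in export, and 3 and 0 of 8 in processing. Among the collagens the numbers were 8 and 0 of 12, and among the hypoxia-responsive genes 3 and 2 of 11. Of all genes in this pair of libraries, 19.0% were lower and 15.7% higher past 1.5-fold.

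**Figure D5:**
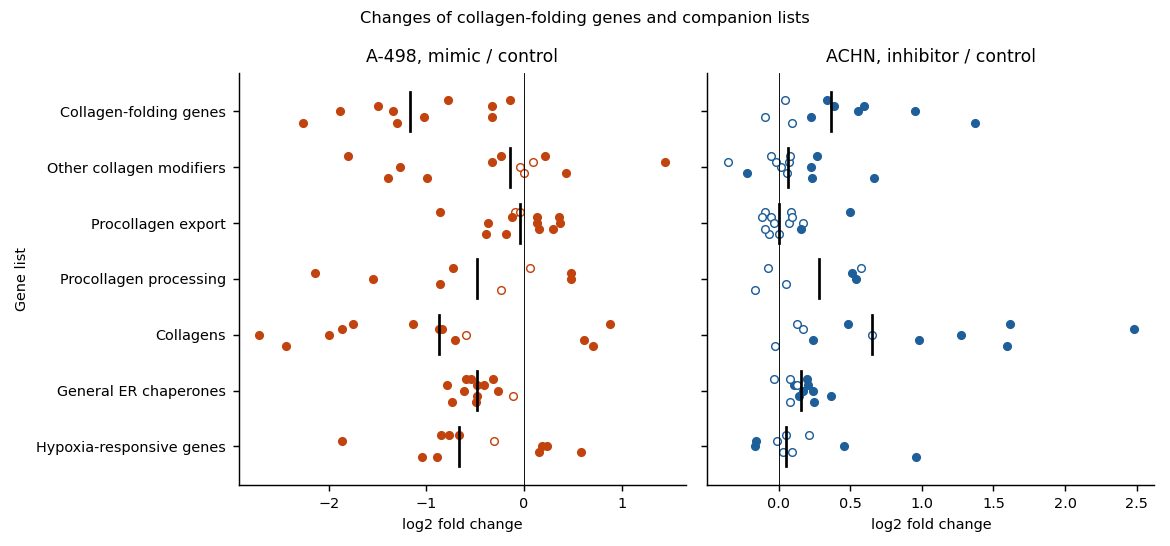
Log2 fold change of each tested gene in the list of 10 and in 6 companion lists, in A-498 (left) and ACHN (right), filled where the edgeR adjusted p is under 0.05; black bars mark medians and vertical positions within a list carry no meaning. The median of the 10 genes is the lowest of the 7 in A-498 (-1.17), and in ACHN it is second to that of the collagens (0.36 against 0.65).

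For the 7 genes called in both lines, the genes with the most similar pattern were sought among 9327 genes averaging log2 CPM 3 or more in A-498 and in ACHN, by Euclidean distance over the 3 log2 changes (786-O, A-498, ACHN). The nearest gene to SERPINH1 was NDRG1 (distance 0.0336), followed by POMK and PEDS1 (0.144 each). P3H4 was nearest to P3H1 (0.118), ahead of NREP (0.133) and MMP14 (0.155). FKBP14, another prolyl isomerase of the endoplasmic reticulum, was nearest to PPIB (0.062), with GCLC (0.0803) and CDIPT (0.0807) next. PPIC had ADAMTS15 (0.14), COL4A1 (0.45) and FBN1 (0.545). P4HA1 was nearest to SNX30 (0.0742), ZHX3 (0.136) and FAM168B (0.141), and P4HA2 to FAXC (0.041), ENDOV (0.0419) and FAM13B (0.0612). The neighbours of P4HA3 were STC1 (0.224), PDE11A (0.388) and TCTN2 (0.42), found with a 786-O ratio that rests on 7 and 11 counts. Each pattern has 3 points, 2 of them with the mimic, so likeness is a description.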

How the data were processed

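Per the labels and the study's methods, the authors made stranded libraries after ribosomal RNA depletion, aligned paired reads to GRCh38 with HISAT2 and counted reads per Ensembl gene with HTSeq in strict intersection mode (versions not given in the sources used here). These raw counts were deposited without normalisation. The tables are named for reverse-strand counting, so genes on the opposite strand, which overlap 7 of the 10, should not share their reads. Summary lines for unassigned reads (37.2% to 48.0% of reads) were left out. Deposited DESeq2 tables of fold changes and p-values were not used. Symbols came from GENCODE v44 (98.1% of genes matched), as did 3′ UTRs and lengths.

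Counts were tested in each line with edgeR 4.0.16 (R 4.3.3; quasi-likelihood, TMM, filterByExpr), two-sided, with Benjamini-Hochberg adjustment over all genes and a threshold of 0.05. Standard errors were derived from the test, as the size of the log2 fold change divided by the square root of the F statistic. The 95% intervals were built from these standard errors with the t distribution. Replicates varied with a biological coefficient of 0.0383 (A-498) and 0.0525 (ACHN). In 786-O, log2 ratios used TMM and a prior count of 2, for genes with at least 10 counts, with exact (Clopper-Pearson) 95% intervals. CPM were TMM-scaled within a line. The test was checked on simulated counts. Alternatives were RLE or library-size scaling, no filter, DESeq2 1.42.0, all libraries sharing 1 spread, a threshold of 0.01, a replicate block and leaving out each replicate. Canonical lengths for shares were added after seeing the data. Genes other than the 10 were named by rule: per list, the called gene with the largest fall and rise (average log2 CPM of at least 1), and the 3 nearest patterns. The 10 genes and the lists were chosen with earlier results of these data known. Further A-498 libraries, whose labels the study doubted, were not analysed here.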

Additional observations from a re-analysis of the deposited data

Results flagged for a closer look

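For 9 of the 10 genes the interaction term of edgeR between the 786-O and A-498 lines passed the threshold (adjusted p under 0.05). Of all 22587 genes tested, 29.6% passed it. Each of the 9 is listed because of that call. Each 786-O group is 1 library and the spread was taken from A-498, so the calls rest on 786-O libraries varying as little. With a coefficient of variation of 0.2, 0 of the 10 and 1.24% of all genes were called. The difference, 786-O minus A-498 on the log2 scale, was 0.83 for P4HA1, 0.76 for PLOD2, 0.64 for PLOD3 and 0.60 for PPIB. P3H1 (0.34) and SERPINH1 (0.33) fell in A-498 and were lower in 786-O by less, and PLOD1 (0.19, edgeR adjusted p = 0.0455) and P4HA3 (2.02, edgeR adjusted p = 0.0444, with 7 and 11 counts in 786-O) were near the threshold. PPIC differed the other way, at -0.47, with 8.76 CPM left in the 786-O mimic library and 13.8 to 14.2 CPM in those of A-498. Without A-498 mimic replicate 1 the calls of P3H1 (edgeR adjusted p = 0.0972), SERPINH1 (0.0801), PLOD1 (0.646) and P4HA3 (0.0614) were lost.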

How the results depend on the processing

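The counts of A-498 genes called lower (10), of ACHN genes called higher (7), of genes with both calls (7) and of control differences (8 higher and 2 lower in A-498) stayed within 1.5 times their value under every alternative run. Leaving out 1 replicate in A-498 left 1 library in an arm, which was assumed to vary like the others, so calls kept there add little. The A-498 log2 fold changes of the 10 genes stayed under 0 in these fits, with PLOD3 at -0.222 to -0.096. In ACHN, leaving out 1 replicate gave 7 to 8 genes higher and 0 to 1 lower, the 1 being PLOD1 without inhibitor replicate 2. The ACHN log2 fold change of PLOD3 ran from -0.001 to 0.085 over the ACHN fits. The differences between 786-O and A-498 depended most on the setting. A coefficient of variation of 0.2 left 0 genes with a more positive and 0 with a more negative effect, leaving out 1 A-498 replicate gave 4 to 8 more positive and 1 to 1 more negative, and the P4HA2 difference ran from -0.016 to 0.131. A prior count of 0.5 put 1 gene (P4HA3) higher past 1.5-fold in 786-O. Scaling by library size alone moved the median of all genes from 0.005 to 0.081 in A-498. In ACHN, where the groups share replicate numbers, a fit with the replicate block called 7 of the 10 genes higher and 0 lower. Of all genes it called 3125 higher and 2638 lower (3102 and 2578 without it). Same-numbered libraries did not deviate together (r of 0.042, -0.05 and -0.005), where differently numbered ones gave -0.071 to 0.069. The labels do not say whether the cultures were paired, and this check cannot settle it. In A-498 no paired analysis was possible because the groups share only number 1. In ACHN the 95% intervals of the PLOD genes reached about 0.1 on either side of the value, so smaller changes could not be detected with 3 libraries per group.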
